A study of Mus musculus with 18 samples.

Results

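The 8 genes described here encode the autosomal Toll-like receptors of the mouse other than TLR4: Tlr1, Tlr2, Tlr3, Tlr5, Tlr6, Tlr9, Tlr11 and Tlr12. They were chosen by name, as 8 of the 21938 protein-coding genes of GENCODE vM21 on mm10, and every H3K27me3 and H3K27ac peak that touched the gene, the 5 kb upstream of it or the 1 kb beyond its end (together the window) was taken with its read count. The windows measured 9177 bp at Tlr12 to 27257 bp at Tlr5, against a median of 23425 bp over all protein-coding genes. The cells were unstimulated bone marrow-derived macrophages (BMDM), which are bone marrow cells differentiated into macrophages in culture. The 3 genotypes were WT (strain label C57BL6), mdx (strain label Dmdmdx-4Cv, mice with a mutated dystrophin gene) and mdxTLR4-/- (labelled mTLR4 with the mixed strain Bl6/Bl10, mdx mice that also lack TLR4), so dystrophin was mutated in both of the last groups. The methods give male mice on a C57BL/6J background. Each genotype had 2 H3K27me3 ChIP and 2 input libraries. For H3K27ac the WT and mdx groups had 2 ChIP libraries each, the mdxTLR4-/- group had 1, and the only input was of no named genotype. The ages in the labels were 12 to 13 weeks for WT, 14 to 15 for mdx and 16 to 17 for mdxTLR4-/- in the H3K27me3 ChIP, and 19 to 20, 21 to 22 and 23 weeks in the H3K27ac ChIP. Across all samples, inputs included, the labelled age rose by 1 week from each sample to the next, from 6 to 23 weeks, and it was not checked against another source. As labelled, age and strain cannot be told apart from genotype. The authors merged the replicates before peak calling, which leaves 1 peak list per mark and genotype, so no spread between mice, SD or p-value can be given. All intervals below are exact 95% intervals of read counts and cover counting error only.

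Toll-like receptors are membrane receptors that detect microbial molecules and products of damaged cells. TLR1, TLR2, TLR5 and TLR6 act at the cell surface, where TLR2 pairs with TLR1 or TLR6 to bind lipoproteins and TLR5 binds flagellin, while TLR3, TLR9, TLR11 and TLR12 act in endosomes on double-stranded RNA, CpG DNA and, for the last pair, profilin of protozoan parasites. H3K27ac is an acetyl mark found at active promoters and enhancers, and H3K27me3 is the methyl mark of Polycomb, found over silenced genes and often spread across broad domains.

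The 6 lists differed in depth of calling. The H3K27me3 lists of WT, mdx and mdxTLR4-/- BMDM held 28143, 41780 and 36488 peaks, and the H3K27ac lists 15665, 12076 and 12493. A H3K27me3 peak held at least 27, 17 and 16 reads in these lists, with medians of 123, 89 and 75. The H3K27ac peaks were thin, with at least 5 reads each and medians of 10, 10 and 8 reads, so a missing H3K27ac peak at a member is a peak that was not called at this depth and not evidence of absent acetylation. All 7 macrophage markers examined, among them Adgre1, Spi1 and Cd68, had a H3K27ac peak and no H3K27me3 peak in every genotype. The T cell, muscle and epithelial markers (Cd3e, Cd8a, Bcl11b, Myod1, Pax7, Epcam) had H3K27me3 and no H3K27ac peak in every genotype. Of the 3 neutrophil markers, Ly6g and Mpo had H3K27me3 in every genotype, and none had H3K27ac. Of the B cell markers reported, Ms4a1 carried H3K27ac in every genotype and Cd79a in WT, away from the gene start, and neither had H3K27me3. Both fibroblast markers, Col1a1 and Pdgfra, had H3K27me3 over the start in every genotype, and Col1a1 also had H3K27ac, away from the start. The part of other cells in the results at the members was not tested. At Tlr4 itself, a H3K27ac peak covered the start in all genotypes, with 44, 29 and 28 reads in WT, mdx and mdxTLR4-/- BMDM. In mdxTLR4-/- BMDM 3 further H3K27ac peaks of 5 reads each began 15417, 23617 and 74217 bp after the start, and in WT 1 of 8 reads began 14017 bp after it. Whether these peaks bear on the deletion depends on which part of Tlr4 was removed, and the methods name the mouse stock but not that part. Dmd, the mutated gene of the mdx mice, carried H3K27ac peaks of 6 and 16 reads in WT and mdx and none in mdxTLR4-/- BMDM, away from its start. H3K27me3 was called at Dmd in mdxTLR4-/- BMDM alone, with 35 reads, also away from the start.

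The marks divided the 8 receptor genes into separate sets. H3K27ac peaks lay at Tlr1, Tlr2, Tlr3, Tlr6, Tlr9 and Tlr11 in WT BMDM, which is 6 of 8 members, while 39.9% of all protein-coding genes had such a peak. In mdx BMDM the 4 members Tlr2, Tlr3, Tlr6 and Tlr9 had a H3K27ac peak, with a background of 34.5%. The same 4 genes had one in mdxTLR4-/- BMDM, with a background of 36.5%. H3K27me3 peaks lay at Tlr5 and Tlr12 in each genotype, or 2 of 8 members, where the shares of all genes were 38.4% in WT, 41.3% in mdx and 39.0% in mdxTLR4-/-. No member carried both marks in any genotype, and none lacked both in all of them (0 of 8 in each case), whereas 16.4% of protein-coding genes had both marks in at least 1 genotype and 23.8% had neither in any. Tlr1 was counted with a mark only through a WT H3K27ac peak that entered its window by 122 bp. The windows of 7 members, all but Tlr5, were shorter than the median window, and the part of window length in these shares was not tested. With 8 genes, these counts describe the family and are given without a test against other genes.

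**Figure D1:**
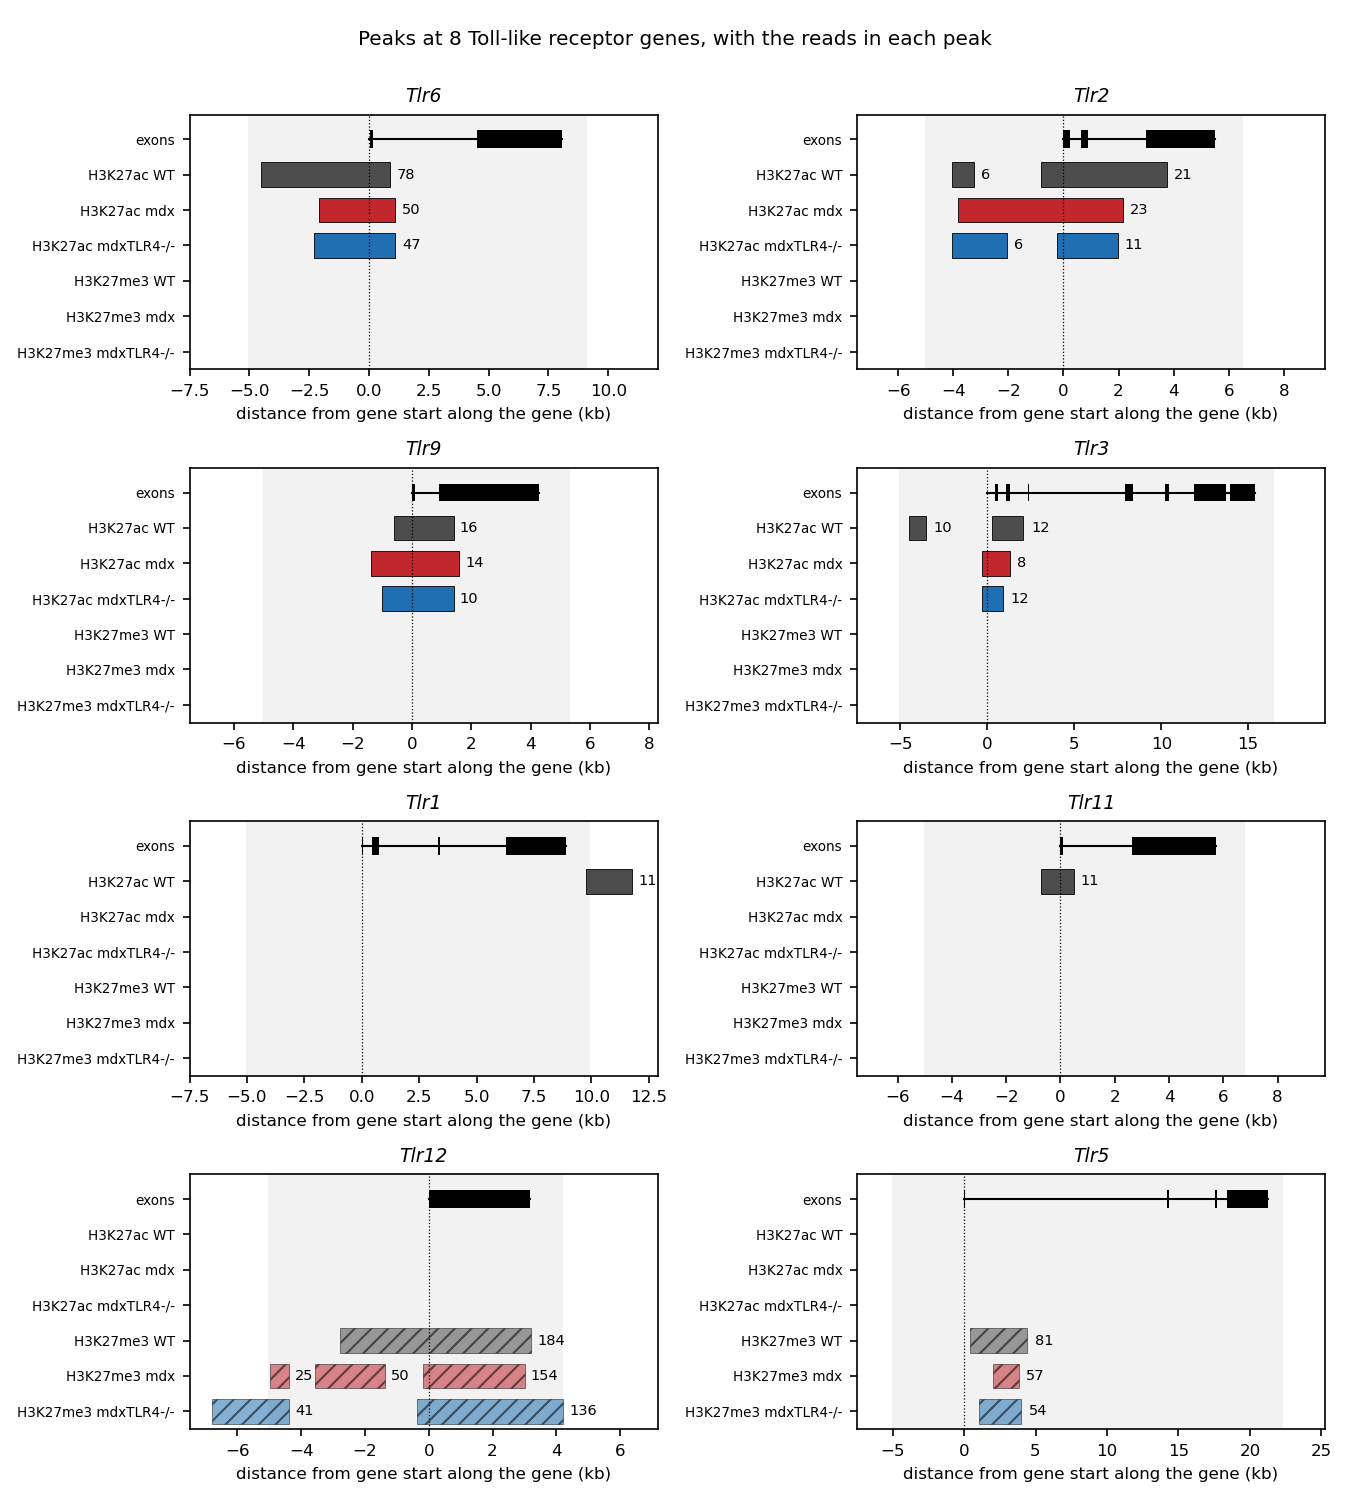
Peaks of both marks at the 8 receptor genes, 1 panel per gene, with the distance from the gene start along the direction of transcription in kb on the horizontal axis. Solid bars are H3K27ac and hatched bars H3K27me3 peaks in WT (grey), mdx (red) and mdxTLR4-/- (blue), the number beside each bar is its read count, black boxes are exons, the shaded area is the window and the dotted line the gene start. H3K27ac bars appear in 6 panels and H3K27me3 bars in the other 2 (Tlr12 and Tlr5).

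At the gene start no member lay under both marks, and the starts of Tlr1 and Tlr5 lay under neither in any genotype. Of all 21938 protein-coding starts in WT, 5158 lay under H3K27me3, 5256 under H3K27ac and 11551 under neither. Overlap of the marks at a start was thus rare over all genes, and its lack is not particular to the members. H3K27ac covered the start of Tlr2, Tlr6, Tlr9 and Tlr11 in WT BMDM (4 members, background 24.0%), and that of Tlr2, Tlr3, Tlr6 and Tlr9 in both other genotypes (4 members each, backgrounds 20.6% and 20.9%). Only the start of Tlr12 lay under H3K27me3, in every genotype (1 member, backgrounds 23.5% in WT, 23.8% in mdx and 22.7% in mdxTLR4-/-). In the 5 kb upstream of the start, 5 members had H3K27ac in WT BMDM, and 4 in each of the other genotypes, against 28.0%, 23.8% and 24.9% of protein-coding genes.

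CpG dinucleotides, the sites of DNA methylation that cluster in CpG islands at many promoters, were counted around the gene starts of the 8 receptors. Within 500 bp of the GENCODE start the CpG count was 4 at Tlr11, 6 at Tlr3, 11 at Tlr1, 12 at Tlr9, 18 at Tlr12, 26 at Tlr6, 31 at Tlr5 and 35 at Tlr2. All 8 counts lay below the median of 41 over all protein-coding genes. The marks did not follow the order of CpG counts: H3K27ac covered starts with the highest count (Tlr2, 35) and the lowest (Tlr11, 4, in WT), and the starts of Tlr5 and Tlr12, with 31 and 18, had none. Genes whose start lay under a WT H3K27ac peak had a median of 64 CpG with a first quartile of 47 (n = 5256), and the 4 members in that class all fell below the quartile. The 18 CpG at Tlr12 lay near the first quartile of 17 for genes whose start was under WT H3K27me3 (median 39, n = 5158). Promoter sequences are shown for the receptor with the most H3K27ac reads (Tlr6), the pair with the fewest CpG in the printed bases (Tlr9 and Tlr11, of which Tlr11 had H3K27ac in WT alone) and the receptor with H3K27me3 over its start (Tlr12). They run 5′ to 3′ on the coding strand from 250 bases before the RefSeq start to 50 bases after it, on GRCm38.p6, at chr5:64959999-64960298 (minus strand) for Tlr6, chr9:106222348-106222647 (plus) for Tlr9, chr14:50357664-50357963 (plus) for Tlr11 and chr4:128618570-128618869 (minus) for Tlr12, and capitals mark CpG.

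Tlr6: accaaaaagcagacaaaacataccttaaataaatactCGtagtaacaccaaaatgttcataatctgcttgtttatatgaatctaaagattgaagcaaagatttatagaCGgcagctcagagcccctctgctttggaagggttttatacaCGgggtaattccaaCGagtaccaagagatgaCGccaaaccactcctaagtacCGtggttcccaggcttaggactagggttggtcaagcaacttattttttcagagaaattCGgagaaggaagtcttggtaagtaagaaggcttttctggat

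Tlr9: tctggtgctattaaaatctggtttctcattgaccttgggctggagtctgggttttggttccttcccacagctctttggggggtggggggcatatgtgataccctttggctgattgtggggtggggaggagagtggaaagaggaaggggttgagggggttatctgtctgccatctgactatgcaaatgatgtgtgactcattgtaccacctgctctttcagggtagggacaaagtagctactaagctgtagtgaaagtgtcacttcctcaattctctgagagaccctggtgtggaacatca

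Tlr11: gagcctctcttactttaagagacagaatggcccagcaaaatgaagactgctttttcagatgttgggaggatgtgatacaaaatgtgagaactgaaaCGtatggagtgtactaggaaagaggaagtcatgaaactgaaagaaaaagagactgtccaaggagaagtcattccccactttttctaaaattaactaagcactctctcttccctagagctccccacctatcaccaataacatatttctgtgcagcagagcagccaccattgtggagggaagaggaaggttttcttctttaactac

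Tlr12: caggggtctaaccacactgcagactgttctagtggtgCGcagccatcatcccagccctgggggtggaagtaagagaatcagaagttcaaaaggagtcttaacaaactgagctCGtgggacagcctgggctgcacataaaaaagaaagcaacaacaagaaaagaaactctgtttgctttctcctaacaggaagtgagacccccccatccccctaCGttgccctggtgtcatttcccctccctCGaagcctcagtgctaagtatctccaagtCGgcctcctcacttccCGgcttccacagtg

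These 300 bases held 7 CpG at Tlr6, 0 at Tlr9, 1 at Tlr11 and 6 at Tlr12, and the promoters not printed held 3 at Tlr1, 8 at Tlr5, 10 at Tlr3 and 11 at Tlr2. Over all 32841 RefSeq promoters of this length the median was 7, with quartiles of 3 and 20. Tlr2, Tlr3, Tlr5 and Tlr6 thus lay at or above that median, unlike in the wider stretch around the GENCODE start. The RefSeq start of Tlr3 lies 700 bp from its GENCODE start, outside the 500 bp counted above. The whole printed stretch lay under H3K27ac in every genotype at Tlr6 and at Tlr9. At Tlr11 it did so in WT BMDM alone. At Tlr12 all 300 bases lay under H3K27me3 in WT and mdxTLR4-/- BMDM and 231 of them in mdx BMDM.

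Motifs of 4 factors were searched in the promoters of the 8 members on both strands, and a match is a description of the letters only. GAGGAAG, the core bound by the myeloid factor PU.1, was found at Tlr9 (112 bases before and 11 after the start), at Tlr11 (133 before and 25 after) and at Tlr1 (23 before), and in 13.6% of all promoters. An interferon response element was found at Tlr11 (122 bases before the start) and in 3.44% of promoters. TGANTCA, the AP-1 site, was found at Tlr9 (58 bases before the start) and in 7.81% of promoters. A form of the NF-kappaB site was found at Tlr3 (211 bases before the start) and in 1.63% of promoters. Tlr2, Tlr5, Tlr6 and Tlr12 had no match in these 300 bases, so members with H3K27ac in every genotype fell on both sides.

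**Figure D2:**
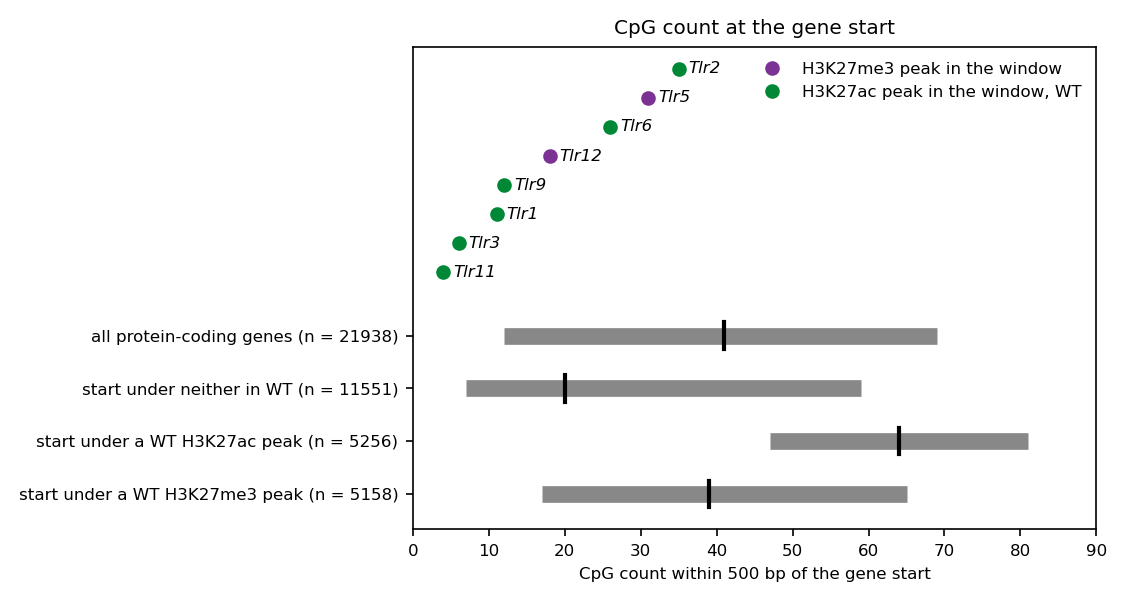
Number of CpG dinucleotides within 500 bp of the gene start (horizontal axis) for the 8 receptor genes, as green points where the window had H3K27ac in WT BMDM and purple points where it had H3K27me3, above bars from the first to the third quartile of gene classes with the median as a black line. All 8 points lie between 4 and 35, left of the median of 41 for all protein-coding genes, and the green points lie left of the bar of genes with H3K27ac over the start (47 to 81).

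Among the surface receptors, Tlr6 carried the deepest H3K27ac peak of the family in each genotype. Tlr6 (ENSMUSG00000051498.6, chr5:64952031-64960097, minus strand, 2 exons) recognises diacylated lipoproteins together with TLR2. Its peak held 78 reads in WT (chr5:64959201-64964600), 50 in mdx (chr5:64959001-64962200) and 47 for mdxTLR4-/- (chr5:64959001-64962400). It held more reads than 98.8%, 97.6% and 98.0% of the peaks in the respective lists. In WT BMDM the peak reached 4503 bp upstream of the start, against 2103 bp in mdx and 2303 bp in mdxTLR4-/-, and its inner edge lay 896 to 1096 bp into the gene, over the noncoding exon 1 and no coding base. The read density was nearly level across genotypes, at 14.4, 15.6 and 13.8 reads per kb of peak, so the additional WT reads went with a longer peak. The unscaled density ratio was 1.08 (0.743 to 1.56) for mdx to WT and 0.957 (0.652 to 1.39) for mdxTLR4-/- to WT, and both intervals held 1. Scaled to 1000000 reads in peaks, both ratios rose, to 1.55 (1.06 to 2.23) and 1.56 (1.06 to 2.26).

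Tlr2 (ENSMUSG00000027995.10, chr3:83836272-83841767, minus strand, 3 exons), the shared partner of TLR1 and TLR6, carried H3K27ac over the widest share of its window. In WT BMDM a peak of 21 reads ran from 833 bp upstream of the start to 3766 bp into the gene (chr3:83838001-83842600), over all 3 exons and 774 of 2352 coding bases, and a second peak of 6 reads lay 3234 to 4033 bp upstream. In mdx BMDM a single peak of 23 reads (chr3:83839601-83845600) spanned 3833 bp upstream to 2166 bp inside, over exons 1 and 2 and no coding base. In mdxTLR4-/- BMDM there were again separate peaks, of 11 reads over the start (chr3:83839801-83842000) and of 6 reads 2034 to 4033 bp upstream. The start and an upstream site near 4 kb were thus under H3K27ac in all 3 genotypes, and what differed was whether they were joined and how far the mark ran into the last exon. Over the region as a whole, reads numbered 27, 23 and 17, and the density ratio was 0.767 (0.420 to 1.39) for mdx to WT and 0.810 (0.414 to 1.54) for mdxTLR4-/- to WT. Neither differed from 1 beyond counting error.

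Tlr1 (ENSMUSG00000044827.10, chr5:64924679-64933563, minus strand, 4 exons) lies 18468 bp from Tlr6 on the same strand, and its product pairs with TLR2 for triacylated lipoproteins. It had no peak of either mark over its start or any exon. The peak that counted it among members with H3K27ac held 11 reads in WT BMDM (chr5:64921801-64923800), lay beyond the 3′ end of the gene and entered the window by 122 bp only. In mdx and mdxTLR4-/- BMDM the H3K27ac peak nearest to its start was that of Tlr6, 25.4 kb away. The nearest H3K27me3 peaks lay 244, 297 and 188 kb from the Tlr1 start in WT, mdx and mdxTLR4-/- BMDM. Neighbouring genes of related sequence thus differed: H3K27ac was deep at the start of Tlr6 and not called at that of Tlr1. The bodies of the pair shared 454 stretches of 50 identical bases, 5.14% of those in Tlr1 and 5.66% of those in Tlr6, where reads could be placed at either gene. These stretches lay 7624 to 8415 bp into Tlr1 and 5867 to 6658 bp into Tlr6, and 0 of them were under a peak. No other pair of members shared such a stretch.

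Tlr5 (ENSMUSG00000079164.8, chr1:182954788-182976044, plus strand, 4 exons), the flagellin receptor, was the surface receptor with H3K27me3 and without H3K27ac. The peak held 81 reads in WT (chr1:182955201-182959200), 57 in mdx (chr1:182956801-182958600) and 54 for mdxTLR4-/- (chr1:182955801-182958800). It lay within intron 1 in each genotype, from 413 to 4412 bp, 2013 to 3812 bp and 1013 to 4012 bp after the start, so that the start, all exons and the upstream 5 kb were free of called H3K27me3. Its length was 4000, 1800 and 3000 bp in the same order. The density was 20.2 reads per kb in WT, 31.7 in mdx and 18.0 in mdxTLR4-/-, highest where the peak was shortest. The ratio of mdx to WT was 1.56 (1.09 to 2.22) unscaled and 1.28 (0.899 to 1.82) relative to the median of regions shared by the lists. That of mdxTLR4-/- to mdx was 0.568 (0.384 to 0.840) unscaled and 0.720 (0.487 to 1.06) relative to that median, so that neither exceeded counting error once the general shift of the lists was set aside. The WT and mdxTLR4-/- peaks were among the thinner ones of their lists, of which 21.0% and 13.6% of peaks had a lower density. Within 25 kb of the window more H3K27me3 was called on both sides of Tlr5: a region 28.8 to 36.6 kb after the start held 210, 220 and 152 reads in WT, mdx and mdxTLR4-/- BMDM, and one 11 to 14.4 kb before it held 69 and 40 reads in WT and mdx and none in mdxTLR4-/-. The nearest H3K27ac peak was 25.6 kb from the start in WT, 131 kb in mdx and 26.2 kb in mdxTLR4-/- BMDM.

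Among the endosomal receptors, Tlr9 and Tlr3 carried H3K27ac near the start in every genotype. Tlr9 (ENSMUSG00000045322.10, chr9:106222598-106226883, plus strand, 2 exons), the receptor for unmethylated CpG DNA, had a peak of 16 reads in WT (chr9:106222001-106224000), 14 in mdx (chr9:106221201-106224200) and 10 for mdxTLR4-/- (chr9:106221601-106224000). The peak covered the start and reached exon 2 in each genotype, and it lay over 489, 689 and 489 of the 3096 coding bases. The density was 8.00, 4.67 and 4.17 reads per kb, with ratios to WT of 0.583 (0.264 to 1.28) for mdx and 0.521 (0.211 to 1.22) for mdxTLR4-/-, both within counting error. A deeper H3K27ac region lay past the end of the gene, 6.8 to 9.4 kb after the start and outside any protein-coding gene body, with 33, 30 and 14 reads in the order WT, mdx and mdxTLR4-/-. It falls between Tlr9 and Alas1, the next gene 6572 bp downstream, and outside the window of Tlr9.

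Tlr3 (ENSMUSG00000031639.12, chr8:45395665-45411080, minus strand), the receptor for double-stranded RNA, has a RefSeq start 700 bp inside the GENCODE gene start, and the H3K27ac peak covered the RefSeq start in every genotype. It held 12 reads in WT (chr8:45409001-45410800), 8 in mdx (chr8:45409801-45411400) and 12 for mdxTLR4-/- (chr8:45410201-45411400). The WT peak began 280 bp after the GENCODE start, and the other two peaks reached 320 bp before it, which is why the GENCODE start of Tlr3 was not counted as covered in WT. Exon 1 of the 7-exon transcript was covered in all genotypes and exon 2 in WT and mdx, neither of them coding. The peak also touched the overlapping gene Gm45542. A second peak of 10 reads lay 3521 to 4520 bp upstream in WT BMDM and was not called in the other genotypes. At the start the density was 6.67, 5.00 and 10.0 reads per kb, and the ratio to WT was 0.750 (0.266 to 2.00) for mdx and 1.50 (0.616 to 3.65) for mdxTLR4-/-. The nearest H3K27me3 to Tlr3 was over the start of the neighbouring gene Fam149a, 23.1 to 32.9 kb from the Tlr3 start, with 217, 361 and 230 reads.

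Tlr11 and Tlr12, the profilin receptors, which signal as a pair in mouse cells, bore opposite marks in WT BMDM. Tlr11 (ENSMUSG00000051969.7, chr14:50357914-50363663, plus strand, 2 exons) had a single H3K27ac peak of 11 reads in WT BMDM (chr14:50357201-50358400), from 713 bp upstream to 486 bp inside the gene and over exon 1. No peak of either mark was called in its window in mdx or mdxTLR4-/- BMDM, where the nearest H3K27ac peaks lay 309 and 132 kb from the start. The nearest H3K27me3 peaks lay 865, 394 and 722 kb away. The next genes, Olfr735 and Olfr736, are olfactory receptor genes at 9042 and 17500 bp. The WT peak was a middling one, with more reads than 50.2% of the peaks of its list.

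Tlr12 (ENSMUSG00000062545.4, chr4:128615443-128618619, minus strand), a gene of 1 exon, lay almost whole under H3K27me3. In WT BMDM 1 peak of 184 reads (chr4:128615401-128621400) covered 100% of the body and 2781 bp upstream of it. In mdx BMDM the mark was called as 3 peaks: 154 reads over 3019 of the 3177 bases of the body (chr4:128615601-128618800), 50 reads 1382 to 3581 bp upstream and 25 reads 4382 to 4981 bp upstream. In mdxTLR4-/- BMDM a peak of 136 reads (chr4:128614401-128619000) covered 100% of the body, and one of 41 reads began 4382 bp upstream. All 2718 coding bases were covered in every genotype. More H3K27me3 was called upstream, outside any protein-coding body, in a region 20.4 to 34.2 kb before the start with 320, 311 and 233 reads. Nearer to the gene, 10.6 to 19.6 kb before the start, WT had 189 reads over 9000 bp of peak, against 41 reads over 1400 bp in mdx and 52 over 2200 bp in mdxTLR4-/- BMDM. The nearest H3K27ac peak was 47.8, 109 and 48.0 kb from the start.

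Presence of a peak was compared between genotypes at each member. With 8 genes, the counts are given beside the shares of all genes and without a test against them. For H3K27me3 it differed at 0 of 8 members in each pair of genotypes, while it differed at 6.75% of protein-coding genes between WT and mdx, 6.34% between mdx and mdxTLR4-/- and 6.45% between WT and mdxTLR4-/-. For H3K27ac, 2 members (Tlr1 and Tlr11) had a peak in WT and none in mdx, and 0 the reverse, where the shares of all genes were 9.94% and 4.61%. The same 2 members had a peak in WT and none in mdxTLR4-/-, and 0 the reverse, where the shares were 8.55% and 5.23%. Counted among the 8744 genes with a WT H3K27ac peak, 2180 lacked it in mdx and 1876 in mdxTLR4-/-. Among the 6 members with a WT peak it was 2 in each comparison. Between mdx and mdxTLR4-/- presence of H3K27ac differed at 0 members and at 14.4% of all genes. Each of these WT peaks held 11 reads, near the median of its list, and the WT list was the longest of the mark. In all 3 genotypes H3K27me3 was present at 2 members and at 34.8% of genes, and H3K27ac at 4 members and at 26.7% of genes.

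The share of the window under H3K27ac peaks ranged from among the highest of all genes with that mark, at Tlr2, to among the lowest, at Tlr1. At Tlr2 it was 47.0%, 52.2% and 36.5% for WT, mdx and mdxTLR4-/-, more than in 97.8%, 98.5% and 97.7% of the genes with a H3K27ac peak. At Tlr6 it was 38.4%, 22.7% and 24.2%, and at Tlr9 19.4%, 29.2% and 23.3%, above 90.6% to 96.3% of such genes at Tlr6 and 86.1% to 94.0% at Tlr9. Tlr2 and Tlr9 were highest in mdx and Tlr6 in WT, so the receptors did not share 1 order of the genotypes. At Tlr3 the share was 13.1%, 7.47% and 5.60%, above 74.3%, 57.6% and 52.1% of such genes. In WT alone it was 10.2% at Tlr11 (above 66.2%) and 0.820% at Tlr1 (above 5.82%). The median over genes with a H3K27ac peak was 6.58%, 6.05% and 5.33%, and a short window raises this share for a peak of given length. For H3K27me3 the share was 65.4%, 65.4% and 56.4% at Tlr12, above the medians of 38.5%, 32.4% and 30.8%, and 14.7%, 6.60% and 11.0% at Tlr5, below them.

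**Figure D3:**
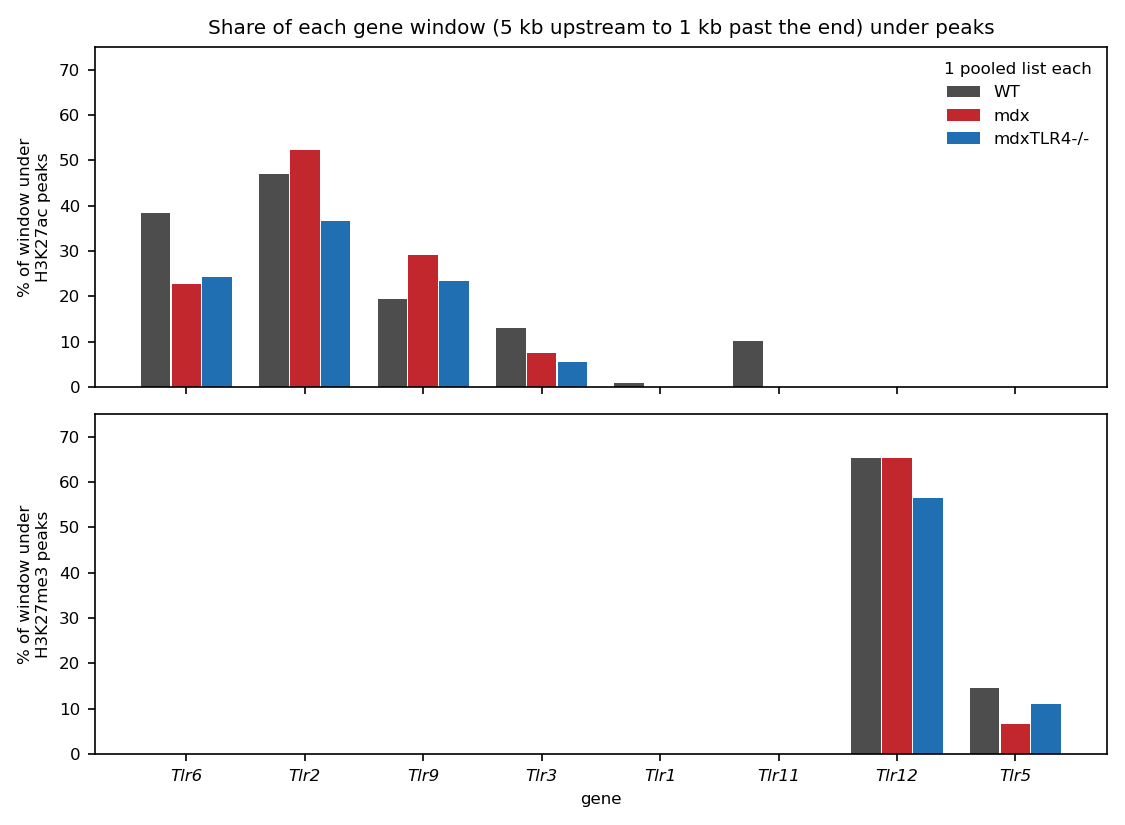
Share of each gene's window under H3K27ac peaks (top) and under H3K27me3 peaks (bottom), in percent, for the 8 receptor genes on the horizontal axis, with 1 bar for each genotype's pooled list and no error bar. H3K27ac bars stand at Tlr6, Tlr2, Tlr9 and Tlr3 in all genotypes and at Tlr1 and Tlr11 in WT alone (0.820% and 10.2%), and H3K27me3 bars at Tlr12 and Tlr5 in all genotypes.

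Read density compared the strength of peaks that were called in both genotypes of a pair. Summed over the 4 member regions with H3K27ac (Tlr2, Tlr3, Tlr6 and Tlr9), the WT, mdx and mdxTLR4-/- lists held 133, 95 and 86 reads. The read ratio of mdx to WT was 0.714, close to the 0.699 of all reads in H3K27ac peaks, and that of mdxTLR4-/- to WT was 0.647, against 0.615. The members therefore moved much as their lists did. The density ratio was 0.756 (0.575 to 0.991) for mdx to WT, 0.843 (0.635 to 1.11) for mdxTLR4-/- to WT and 1.12 (0.823 to 1.51) for mdxTLR4-/- to mdx. Across the 6509 H3K27ac regions shared by the genotypes the median ratios were 0.857, 0.840 and 0.969, which lay inside the members' intervals. Scaled to reads in peaks, the mdx to WT ratio turned to 1.08 (0.822 to 1.42) and the mdxTLR4-/- to WT ratio to 1.37 (1.03 to 1.81), while relative to the 1st percentile of density the latter was 0.738 (0.556 to 0.975). No direction against WT is therefore given for H3K27ac. For H3K27me3, the ratio over Tlr5 and Tlr12 was 1.37 (1.15 to 1.63) for mdx to WT and 0.943 (0.779 to 1.14) for mdxTLR4-/- to WT. The reads themselves stood at 0.985 and 0.717 times those of WT, below the 1.22 and 0.883 of all reads in H3K27me3 peaks, so reads and density moved unlike each other against WT as the called lengths differed. For mdxTLR4-/- to mdx the density ratio over the same pair of regions was 0.690 (0.569 to 0.835). It was 0.630 (0.527 to 0.752) with a second Tlr12 region included, whose mdx peak held 25 reads over 600 bp and whose mdxTLR4-/- peak held 41 reads over 2400 bp, and where WT had a peak of 50 reads outside the window. The medians over the 17103 shared H3K27me3 regions were 1.22, 0.959 and 0.790, so unscaled densities in called peaks were higher in the mdx list in general. Without scaling for depth or input, they do not measure the level of the mark. For the signal relative to input around all genes, the paper reports less H3K27me3 in mdx than in WT BMDM. Relative to these medians the mdx to WT ratio became 1.12 (0.943 to 1.34), and that of mdxTLR4-/- to mdx became 0.873 (0.721 to 1.06) over the pair of regions and 0.798 (0.668 to 0.952) with the second Tlr12 region, so that its distance from 1 rested on that region. At Tlr12 alone, the region over the gene held 184, 204 and 136 reads, with density ratios of 1.23 (1.00 to 1.51) for mdx to WT and 0.783 (0.625 to 0.977) for mdxTLR4-/- to mdx. Relative to the shared regions these were 1.01 (0.825 to 1.24) and 0.991 (0.792 to 1.24), and the gene was not distinguishable from the general shift.

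**Figure D4:**
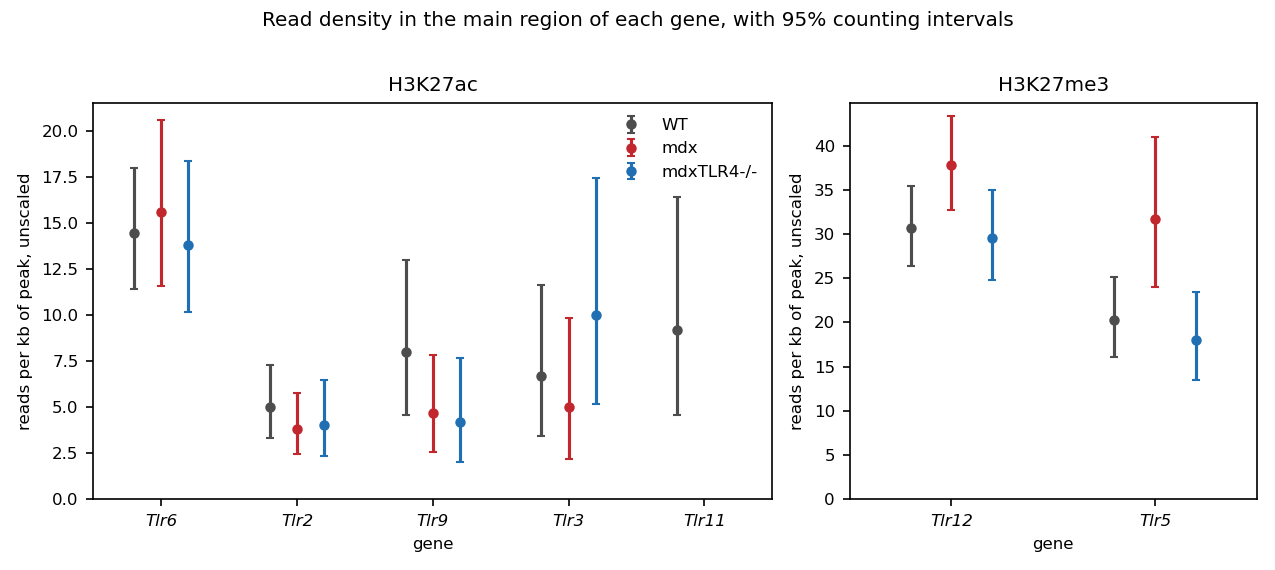
Read density, in reads per kb of peak and not scaled for depth, in the main region of each gene for H3K27ac (left) and H3K27me3 (right), as points for WT (grey), mdx (red) and mdxTLR4-/- (blue) with exact 95% Poisson intervals of the counts. The Tlr6 points lie at 14.4, 15.6 and 13.8, and the mdx points of Tlr12 and Tlr5 are above those of the other genotypes, in a list where shared regions had a median ratio to WT of 1.22.

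The partners of these receptors were examined as 25 genes in 4 groups by role. H3K27ac was present at 21, 17 and 22 of them in the WT, mdx and mdxTLR4-/- lists, where the shares of all genes were 39.9%, 34.5% and 36.5%, and H3K27me3 at 5, 4 and 5, where they were 38.4%, 41.3% and 39.0%. H3K27ac covered the start at 14, 15 and 13 of them, where the shares of all genes were 24.0%, 20.6% and 20.9%. It lay within 2.5 kb of the start at 16, 17 and 18, for which no share of all genes was computed. Near the starts the mdx count was thus not the lowest. Single genes still differed there: H3K27ac covered the start of Irf3 in WT and not in mdx, and those of Myd88 and Traf3 in mdx and not in WT. The 7 genes for trafficking and cleavage, on which the endosomal receptors depend, all had H3K27ac in each genotype. Among them Unc93b1, which carries TLR3 and TLR9 to endosomes, held 53, 58 and 20 reads, and the protease gene Ctsb 268, 215 and 174. Of the 10 adaptors and kinases, 7, 6 and 9 had H3K27ac. Myd88, the adaptor of every member except TLR3, held 13, 17 and 11 reads, and Tirap, an adaptor for TLR2, had no peak of either mark. Of the 5 co-receptors and inhibitors, 4, 2 and 3 had H3K27ac, and the inhibitors Tollip and Sigirr had H3K27me3 over the start in every genotype. The 3 interferon regulatory factors had H3K27ac in WT and mdxTLR4-/-, and Irf5 and Irf7 also in mdx BMDM. Irf7 had H3K27me3 as well in every genotype, away from the start, over 21.3%, 15.1% and 19.2% of its window.

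H3K27ac was called in WT BMDM at 21 of the 25 partner genes and at 8744 of the 21938 protein-coding genes. Only 1 partner gene (Traf3) had a peak in mdx and none in WT, beside 4.61% of all genes. Of the 8744 genes with a WT peak, 2180 (9.94% of all genes) had none in mdx. A similar share of the partner genes with a WT peak lacked it in mdx, namely 5 of 21. Those with the most reads were Irak2, a kinase of the MyD88 pathway, with 39 reads in WT, 0 in mdx BMDM and 7 in those of mdxTLR4-/- mice, Cd36, a co-receptor of TLR2 and TLR6, with 30, 0 and 10, and Irf3, which acts downstream of TLR3, with 16, 0 and 11. The other 2 of the 5 were Ticam1, an adaptor of TLR3, with 9, 0 and 10 reads, and Tollip, with 11, 0 and 0. Traf3 had a H3K27me3 peak in WT alone, of 1390 reads, which covered 0.892% of its window and for the most part lay outside it. The other partner genes named here were chosen after their values were seen.

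Genes with a profile like that of each member were ranked by the mean absolute difference in percent of the window under peaks over the 6 lists. Nearest to Tlr2 was Selenop (0.0930 percentage points), a selenium carrier, followed by Grn (0.902), a lysosomal and secreted growth factor of macrophages, and Mrpl41 (0.987). For Tlr6 they were Uqcrh (0.255), Nr1d1 (0.666) and Bst2 (0.697), and for Tlr9 Fdxacb1 (0.266), Iscu (0.408) and Rps13 (0.523). For Tlr3 they were Kctd9 (0.137), Mad2l1 (0.189) and Smc4 (0.196). On the H3K27me3 side, Tlr12 was most like Rgs8 (0.567), Gdnf (0.747), a neurotrophic factor, and Aknad1 (0.761), and Tlr5 most like Gnrhr (0.554), the receptor for gonadotropin-releasing hormone, Kcnk12 (0.576) and Elmod2 (0.607). With a peak in 1 list only, Tlr1 and Tlr11 were matched closely by many genes, the nearest being Gabrg3, Scgb2b3 and Ttc7b for Tlr1 and Gapdhs, Tedc2 and Msrb2 for Tlr11.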

How the data were processed

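Native ChIP-seq of 2 histone marks was analysed in BMDM of 3 genotypes (18 samples, inputs included). Per the methods and the submitters' processing notes (CASAVA 1.8, cutadapt 1.15, Bowtie2 2.3.4, SICER 2.0, mm10), the authors mapped reads, merged replicates and called peaks in windows of 200 bp with gaps of 600 bp at an FDR of 0.01. The deposited values are counts of ChIP reads per peak, not scaled and with no input subtracted. The total depth of the libraries is unknown here. Reads in peaks are given per list and are not depth.

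From these counts, peaks were intersected with gene windows of GENCODE vM21 (at least 1 bp). Both the starts and the ends of the peaks were shifted by 1 bp, to 1-based positions. Peaks of 2 lists that overlapped formed a region, and density ratios carry exact Clopper-Pearson intervals at 95%. With 1 pooled list per group, no test between genotypes was made. The inputs served only through the authors' peak calling. The members, gene lists and rules were chosen with earlier results of these data known.

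Genes named were all 8 members, of the partner lists up to 3 per mark whose presence of a peak differed between WT and mdx (those with the most reads), the 3 genes most like each member, genes under or next to a member's peaks, and Tlr4 and Dmd for the labels. One marker gene is not reported here. Promoters came from RefSeq (GRCm38.p6, 8 of 8 members matched, 0 differing from the genome). The 5 other ways of counting members were gene body only, 2.5 kb to either side of the start, at least 200 bp of the window, a density of at least 1.5 times the 1st percentile of the list and lists cut to equal numbers of peaks by density. Read densities had 3 other scalings. The code was tested on simulated peak lists. Software was Python 3.11.15, numpy 2.4.6, scipy 1.17.1, pysam 0.24.0 and matplotlib 3.10.9.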

Additional observations from a re-analysis of the deposited data

How the results depend on the processing

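Presence of H3K27ac differed at 1 member (Tlr11) between WT and mdx, and likewise between WT and mdxTLR4-/-, with the gene body only, with 2.5 kb to either side of the start and with at least 200 bp of the window, since the Tlr1 peak entered the window by 122 bp. In these settings Tlr1 had no peak of either mark in any genotype, so a member then lacked both. At a density of at least 1.5 times the 1st percentile, H3K27me3 remained at 1 member (Tlr12) in WT and 1 in mdxTLR4-/-, and presence differed at 1 member (Tlr5) for WT and mdx and for mdx and mdxTLR4-/-. With lists of equal length, taken by density, it remained at 1 member (Tlr12) in mdxTLR4-/-, and presence differed at 1 member (Tlr5) between that genotype and each of the others. With peaks of at least 10 reads, chosen after seeing the data, H3K27ac remained at 3 members in mdx. Its presence then differed at 1 member (Tlr3) between mdx and mdxTLR4-/- and at 3 (Tlr1, Tlr3 and Tlr11) between WT and mdx. Partner genes with H3K27me3 within 2.5 kb of the start numbered 3 in WT and 2 in mdxTLR4-/-. Scaled to reads in peaks, the density ratios over member regions were 1.08 (mdx to WT) and 1.37 (mdxTLR4-/- to WT) for H3K27ac, and 1.12 (mdx to WT) and 0.873 (mdxTLR4-/- to mdx) for H3K27me3, and the ratio at Tlr12 for mdxTLR4-/- to mdx turned to 1.08. Relative to the median of shared regions, the H3K27me3 ratios were 1.12 (mdx to WT) and 0.798 (mdxTLR4-/- to mdx), and against the 1st percentile of density the last was 0.803. Without the second Tlr12 region, an alternative chosen after seeing the data, the unscaled mdxTLR4-/- to mdx ratio was 0.690. The cause of these shifts was not tested. No paired analysis was possible because the authors merged the replicates into 1 list per genotype, and for the same reason no replicate could be left out. A H3K27ac peak can hold as few as 5 reads, so density ratios of single members were known only within wide limits.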
